A study of Mus musculus with 5 samples.

Results

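The 9 genes described here code for the TGF-beta ligands (Tgfb1, Tgfb2, and Tgfb3), their signaling receptors (Tgfbr1 and Tgfbr2), the receptor-regulated SMADs (Smad2 and Smad3), the feedback inhibitor Smad7, and the induced matrix protein Tgfbi. They were chosen by name, with earlier results of these data known. All 9 were found among the 32285 genes of the 3 TDLN matrices and the 33696 genes of the 2 MC38 matrices. Male C57BL/6J mice, 8 to 10 weeks old, carried s.c. tumors of TRAMP-C2, a prostate cancer line, or of MC38, a colon carcinoma line. Isotype antibody or CPI (anti-CTLA4 plus anti-PD-1) was given 3 times, on day 3, day 6, and day 9. On day 12 they were given vehicle or 20 mg/kg of ABT-317, a JAK1 inhibitor, and tissue was taken on day 15. The study's scRNA-Seq methods count these days from implantation. Its account of the MC38 experiment counts them from enrollment, once tumors had reached a set volume. All mice were wild type, and each tumor model was 1 cell line. scRNA-Seq of TDLNs from TRAMP-C2 bearing mice was run as 3 droplet reactions of unsorted cells. MC38 tumors were run as 2 reactions, in which sorted CD45+ and CD45- cells were mixed 1:1. Antibody hashtags marked the treatments in MC38 reactions as isotype, CPI, CPI + ABT-317, and isotype + ABT-317.

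TGF-beta is secreted in a latent complex and must be released, by integrins, proteases, or thrombospondin, before it can bind. The active ligand joins the receptor pair coded by Tgfbr2 and Tgfbr1, which phosphorylates SMAD2 and SMAD3 so that they enter the nucleus with SMAD4. Smad7 is itself a target gene, and its product blocks the receptor. In tumors the pathway is known for restraining T cells, for maintaining Tregs, and for activating fibroblasts.

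The replicates are droplet reactions, and no value per mouse is given here. Each treatment had another hashtag in each MC38 reaction, and whether the reactions held cells of different mice is not given in the sources used here. Gene UMIs per reaction were 18055617 to 127052825 for TDLNs and 377184807 to 435031691 for MC38. In MC38 reactions 1 and 2, 33762 and 23332 barcodes passed the quality filters, 18040 and 14662 of them carried exactly 1 hashtag, and 12793 and 12189 fell in a cell class. The CPI hashtag was the least separated. A 2-component mixture was fitted to the log counts of each hashtag. For CPI its upper component lay at 51.0 and 32.5 UMIs in reactions 1 and 2, and its lower at 17.6 and 9.97 UMIs. The isotype hashtag was called in 25806 of 37774 and 15983 of 27582 barcodes before filtering, against 5455 to 10739 for each of the others. Barcodes with more than 1 hashtag were left out, and what this did to the treatments was not tested. MC38 reactions shared 1416 barcode sequences and TDLN reactions shared 576 to 4842 in pairs. Antibody counts were 0 in all TDLN reactions, and TDLN levels are therefore given over all treatments together.

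Cell classes were defined by UMIs of marker lists that hold none of the 9 genes. MC38 barcodes held 8657 macrophage-like, 758 T cell-like, 1769 fibroblast-like, 184 pericyte-like, 79 endothelial-like, 71 neutrophil-like, and 46 mature DC-like barcodes. T cell-like barcodes included 307 CD8 T-like and 72 Treg-like barcodes. Many barcodes passed the gate of no marker list and were near 0 for macrophage, T cell, endothelial, pericyte, and neutrophil markers. Those that also lacked Ptprc (the gene for CD45), held under 5 UMIs of Col1a1 and Col1a2 per 10000, and had at least 5000 UMIs are called no-list barcodes. The summed fibroblast markers, at 20 UMIs per 10000, divided them into 4396 and 9022 barcodes, named Col3a1-high and Col3a1-low after a collagen gene of that list (2261 to 2914 CPM by treatment and reaction in the former and 111 to 397 CPM in the latter), with medians of 16387 and 25210 UMIs, against 3508 in macrophage-like barcodes. This division was chosen after clusters of these barcodes had been seen to differ in Tgfb3, so it is not independent of that gene. The fibroblast markers summed to 4786 CPM in the Col3a1-high and 671 CPM in the Col3a1-low class, against 70694 CPM in fibroblast-like and 5242 CPM in pericyte-like barcodes, and the cycling markers to 572 and 917 CPM. The keratin list fixed for tumor cells summed to 0.948 and 0.707 CPM in them, so they were not named as tumor cells, and the no-list Col3a1-low class was led by Cox6a2, Hmga1, and Psph. Genes highest in T cell-like barcodes by fold included Igha, an antibody heavy chain gene, beside Cd3d and Cd3g.

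The hashtags differed greatly in the classes that carried them, which bears on every level given over all treatments and on every CPI value. The upper component of the hashtag mixture lay at 51.0 and 32.5 UMIs for CPI, against 154 to 510 UMIs for the other hashtags. Whether hashtag staining differed between cell types was not tested, so a treatment and the call of its hashtag cannot be told apart. Of the T cell-like barcodes, 366 and 355 in reactions 1 and 2 carried the CPI hashtag, 20 and 16 the isotype hashtag, and 1 any other. Of the fibroblast-like barcodes, 879 and 687 carried the CPI hashtag and 17 to 72 each of the others. Macrophage-like barcodes came mainly from isotype, with 3571 and 3848 against 102 and 103 from CPI. Levels below are UMIs of the gene per 1000000 UMIs of the class (CPM), as the mean ± SD of the reactions, and they are compared between classes within 1 gene only. Class levels are a description and carry no test, because classes were built from the same cells.

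The 3 ligands were highest in different MC38 classes. Tgfb1, the ligand most often tied to immune regulation, was 146 and 159 CPM in T cell-like barcodes in reactions 1 and 2 (153 ± 9.44, n = 2). Macrophage-like barcodes held 106 and 114 CPM of Tgfb1 (110 ± 5.07), and endothelial-like barcodes 120 ± 34.4 CPM. T cell-like values lay above those of both other classes in each reaction, only just so above endothelial-like barcodes in reaction 1 (144 CPM). No-list and fibroblast-like barcodes were low, at 26.8 ± 2.84 CPM (Col3a1-high), 24.2 ± 1.92 CPM (Col3a1-low), and 19.2 ± 5.39 CPM. Treg-like barcodes had 113 and 359 CPM of Tgfb1, from 30 UMIs in all, a spread too wide to place this class in the order. CD8 T-like barcodes had 133 ± 45.8 CPM.

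Tgfb2, known as a ligand of stromal cells, had its highest levels in pericyte-like and fibroblast-like barcodes. It was 32.6 and 69.0 CPM in the former (32 UMIs) and 38.3 and 44.0 CPM in the latter (370 UMIs), which overlap. All barcodes of reactions 1 and 2, in a class or not, held 894 and 663 UMIs of Tgfb2. The next levels were 14.4 ± 2.33 CPM of Tgfb2 in endothelial-like barcodes (4 UMIs) and under 1 CPM in macrophage-like and no-list barcodes. T cell-like barcodes had 0 Tgfb2 UMIs, which allows up to 2.898 CPM. Within the fibroblast-like class Tgfb2 was 46.2 and 57.5 CPM with the CPI hashtag and 4.96 and 1.77 CPM with the isotype hashtag (3 and 1 UMIs), given with no test.

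Tgfb3, the third ligand, had its highest level over both reactions in no-list Col3a1-high barcodes, at 95.7 and 89.9 CPM (92.8 ± 4.11). No-list Col3a1-low barcodes held 16.4 and 14.6 CPM of Tgfb3 (15.5 ± 1.25), a difference that was in view when the no-list barcodes were divided. Pericyte-like barcodes followed with 68.4 ± 3.87 CPM, then fibroblast-like barcodes with 40.4 ± 16.1 CPM and macrophage-like barcodes with 36.7 ± 4.73 CPM. The fibroblast-like and macrophage-like levels did not differ beyond their spread. Mature DC-like barcodes reached 96.7 CPM of Tgfb3 in reaction 1, from 10 UMIs in 28 barcodes, and reaction 2 had too few of them for a value. In endothelial-like barcodes Tgfb3 gave 1 UMI.

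The receptor genes also divided by class. Tgfbr1, the kinase that phosphorylates the SMADs, was 257 and 233 CPM in macrophage-like barcodes (245 ± 17.4), and its next levels were 76.2 ± 80.6 CPM in neutrophil-like (13 UMIs) and 71.4 ± 9.52 CPM in Treg-like barcodes (9 UMIs). CD8 T-like, endothelial-like, fibroblast-like, and T cell-like barcodes lay together at 45.3 to 51.1 CPM of Tgfbr1, and no-list barcodes at 18.3 and 11.7 CPM. Tgfbr2, which binds the ligand, was 371 and 396 CPM in fibroblast-like barcodes (384 ± 17.9). Endothelial-like and CD8 T-like barcodes followed with 228 ± 28.3 and 228 ± 2.55 CPM of Tgfbr2, then T cell-like barcodes with 195 ± 24.2 CPM. Macrophage-like and no-list Col3a1-high barcodes were alike in Tgfbr2, at 112 ± 3.62 and 105 ± 1.37 CPM, and no-list Col3a1-low barcodes had 43.6 ± 1.36 CPM. The macrophage-like class was thus first for Tgfbr1, and below fibroblast-like, endothelial-like, and T cell-like barcodes for Tgfbr2 in both reactions.

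Of the SMAD genes, Smad2 varied least between classes. It ranged from 26.9 ± 1.94 CPM in macrophage-like to 56.6 ± 12.9 CPM in pericyte-like barcodes, and the upper classes did not differ beyond their spread. Smad3, the DNA-binding partner of Smad2, was 79.7 and 68.9 CPM in T cell-like barcodes (74.3 ± 7.63) against 37.5 and 31.2 CPM in macrophage-like and 9.87 and 7.64 CPM in no-list Col3a1-low barcodes. Neutrophil-like barcodes had 109 and 19.2 CPM of Smad3, from 11 UMIs, on both sides of the T cell-like values. CD8 T-like barcodes had 81.1 ± 15.2 CPM of Smad3, within the spread of the T cell-like level. Smad7, the feedback inhibitor, was 328 and 419 CPM in T cell-like barcodes (374 ± 64.4) and 399 ± 46.0 CPM in CD8 T-like barcodes. The next class outside the T cells was endothelial-like, with 179 ± 26.2 CPM of Smad7, and all others held under 82 CPM. T cell-like barcodes were therefore above every non-T class in both reactions for Smad7.

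Tgfbi codes for an adhesive matrix protein that TGF-beta induces in many cells. It was 827 and 849 CPM in macrophage-like barcodes (838 ± 16.1). Endothelial-like barcodes came next with 216 and 115 CPM of Tgfbi, and fibroblast-like barcodes had 105 and 82.7 CPM. T cell-like barcodes had 74.0 ± 26.8 CPM of Tgfbi, and the 7 macrophage markers summed to 667 CPM in them against 16044 CPM in macrophage-like barcodes. The part of macrophage RNA in the T cell-like value was not tested. In TDLN T-like barcodes Tgfbi gave 0 UMIs.

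The promoters of Tgfbi and Tgfbr1 are shown because these genes moved together by treatment in macrophage-like barcodes, as described further on. Each is the 250 bases upstream of a RefSeq start site on GRCm38.p6, the plus strand in both cases, and 6 of the 9 members had an entry. Capitals mark CAGAC or its reverse complement GTCTG, the short SMAD-binding letters, searched on both strands. The Tgfbi window is chr13:56609336-56609585 and the Tgfbr1 window, for the first of 2 listed starts, is chr4:47352972-47353221.
Tgfbi: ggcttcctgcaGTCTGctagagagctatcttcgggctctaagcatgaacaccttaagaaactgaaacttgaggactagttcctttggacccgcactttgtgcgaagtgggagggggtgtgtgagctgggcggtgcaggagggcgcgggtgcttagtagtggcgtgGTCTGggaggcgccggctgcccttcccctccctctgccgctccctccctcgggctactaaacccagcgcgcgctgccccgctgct
Tgfbr1: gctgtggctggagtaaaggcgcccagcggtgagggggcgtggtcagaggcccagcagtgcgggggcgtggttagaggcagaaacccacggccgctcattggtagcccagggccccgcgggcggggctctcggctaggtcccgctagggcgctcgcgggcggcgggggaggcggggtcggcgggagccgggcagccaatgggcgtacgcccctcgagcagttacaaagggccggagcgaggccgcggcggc
Tgfbi held 2 such matches and this Tgfbr1 window none, while the window of the second Tgfbr1 start (chr4:47385966-47386215, not shown) held 1. Of 32841 windows of this length, 42.21% held at least 1, so a match is common. TTCNNNGAA, the palindromic letters bound by STAT dimers, was in neither window and in 7.02% of all.

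**Figure D1:**
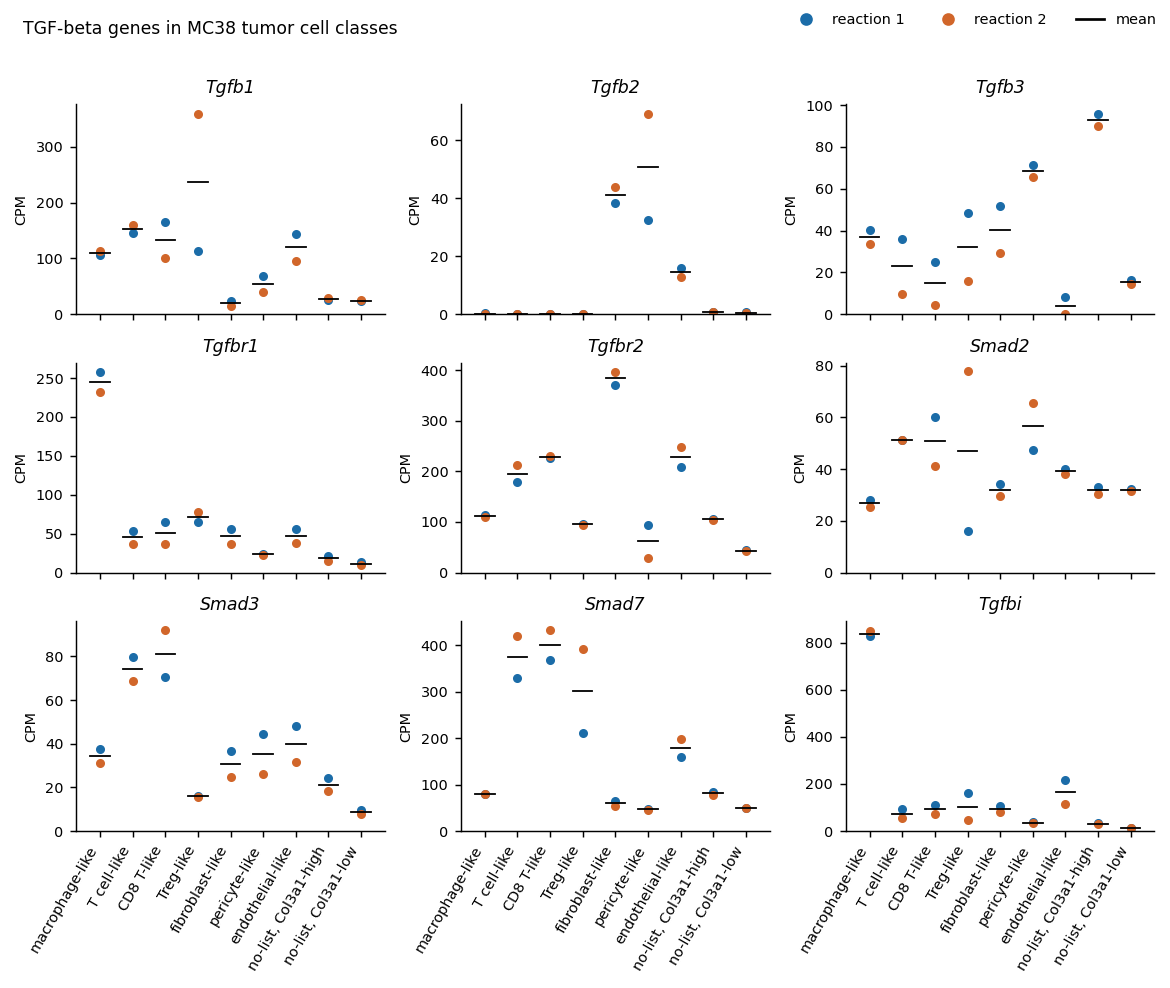
Level of each of the 9 genes in MC38 cell classes, in CPM on axes that start at 0 and differ by gene, with a point for each reaction and a bar at their mean. Tgfbi and Tgfbr1 peak in macrophage-like barcodes at 838 and 245 CPM, Tgfbr2 in fibroblast-like barcodes at 384 CPM, and Smad7 is 374 CPM in T cell-like barcodes. Tgfb3 is 92.8 CPM in no-list Col3a1-high barcodes, the highest class with both reactions.

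The order also held in part within CPI, where most T cell-like and fibroblast-like barcodes came from. With the CPI hashtag alone, a setting added after seeing the data, 7 of the 9 genes kept their highest class, and Tgfb2 moved to fibroblast-like barcodes. The highest class of Tgfb3, no-list Col3a1-high, held too few CPI barcodes (9 and 4) for a level, so Tgfb3 could not keep it in this setting. Tgfbi was then 489 and 415 CPM in macrophage-like, 125 and 96.1 CPM in fibroblast-like, and 89.7 and 53.8 CPM in T cell-like barcodes. Tgfbr1 was 124 and 58.7 CPM in macrophage-like against 58.4 and 38.3 CPM in fibroblast-like barcodes, so the lowest macrophage-like value was only just above the highest fibroblast-like one. Tgfb1 was 150 and 151 CPM in macrophage-like and 147 and 162 CPM in T cell-like barcodes, which overlapped.

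Genes that release or hold the latent ligand were read from a list of 31 pathway genes. Itgav, the integrin chain that pulls active TGF-beta from its complex, was highest in Treg-like barcodes at 653 ± 173 CPM, as was its partner Itgb8 at 103 ± 13.7 CPM from 13 UMIs. Lrrc32, which anchors latent TGF-beta on Tregs, was 55.5 ± 9.90 CPM there, from 7 UMIs. Nrros, its counterpart on myeloid cells, was 106 ± 4.17 CPM in macrophage-like barcodes. Mmp14, a membrane protease, reached 1349 ± 34.7 CPM in fibroblast-like barcodes, where Ltbp1, a latent complex protein, was also highest at 97.3 ± 17.5 CPM. Furin, which cleaves the precursor, was highest in macrophage-like barcodes at 231 ± 6.38 CPM.

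Co-receptors and feedback genes gave further divisions. Tgfbr3 (betaglycan) was highest in fibroblast-like barcodes at 286 ± 43.4 CPM and Eng (endoglin) in endothelial-like barcodes at 413 ± 63.5 CPM. Over all treatments Pmepa1, an inhibitor induced by TGF-beta, was alike in macrophage-like, no-list Col3a1-high, and fibroblast-like barcodes. Its levels were 435 ± 4.95, 411 ± 13.3, and 410 ± 20.0 CPM. They rest on unlike treatments, mainly isotype for macrophage-like and CPI for fibroblast-like barcodes. Pooled over reactions, macrophage-like Pmepa1 was 102 CPM in CPI and 444 CPM in isotype. Id3, a target of the related BMP branch, was 624 to 760 CPM in pericyte-like, endothelial-like, no-list Col3a1-high, and fibroblast-like barcodes. Itgae, the CD103 chain induced by TGF-beta on T cells, was 144 ± 70.8 CPM in Treg-like barcodes, from 18 UMIs.

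The genes most like each member were ranked by Pearson's r of log2(CPM + 1) over 12 sums, which are 6 classes in 2 reactions and share libraries and depth within a reaction. Among 6442 genes, Tgfbi and Tgfbr1 had the same closest gene, Atp13a2, with r of 0.99 and 0.98. Lgmn and Hgsnat came next for Tgfbi (both 0.97), and Fcgr4 and Mdm2 for Tgfbr1 (both 0.98). Tgfb1 was closest to Cdc42se2, Dusp2, and Aim2 (0.98 each). Tgfb2 was closest to Cygb (0.99), Gpx7, and Olfml2b (0.98 each), and Tgfb3 had the weakest matches, with Cep170 at 0.90, Ube2l6 at 0.87, and Map7d1 at 0.86. Tgfbr2 was closest to Clptm1l (0.94), Tent5a (0.92), and Man1a (0.91). Smad7 was closest to Marchf7 (0.98), Ubac2, and Emb (0.97 each), Smad3 to Akap13 (0.98), Susd6, and Slc30a5 (0.97 each), and Smad2 to Zfp644 (0.99), Dido1, and Tbl1x (0.97 each).

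In TDLNs, strict gates left 2445 T-like and 1311 B-like barcodes, while 122374 barcodes met no gate, with 2194 and 1610 CPM of the T and B list sums. Of these ungated barcodes, 84.9% to 90.7% per reaction held at least 1 UMI of both lists, and 58.8% to 71.1% at least 2 of each. T-like barcodes were divided into CD8 T-like (891), CD4 T-like (177), Treg-like (136), cytotoxic-like (287), and other T-like (954) barcodes. Reaction 3 gave only 44 T-like barcodes and enters only the level of all T-like and of ungated barcodes. Tgfb1 was 196 and 258 CPM in B-like and 184 and 240 CPM in Treg-like barcodes, which overlap. It was 95.2 and 110 CPM in CD8 T-like and 97.8 and 140 CPM in CD4 T-like barcodes, below both in each reaction. Ungated barcodes had 235 ± 9.87 CPM of Tgfb1 (n = 3).

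Smad7 was again high in T cells, with 428, 348, and 313 CPM in all T-like barcodes of the 3 reactions (363 ± 58.6) against 170 and 178 CPM in B-like barcodes. CD4 T-like barcodes held 587 and 403 CPM of Smad7 and CD8 T-like barcodes 364 and 314 CPM. Tgfbr2 was broad, from 315 ± 94.0 CPM in Treg-like to 460 ± 137 CPM in CD4 T-like barcodes, with B-like barcodes at 320 ± 25.6 CPM. CD4 T-like (557 and 363 CPM) and other T-like values of Tgfbr2 (382 and 380 CPM) lay above both B-like values (338 and 302 CPM), and Treg-like values (381 and 248 CPM) lay on both sides of them. Tgfbr1 was 73.8 and 138 CPM in Treg-like barcodes against 28.3 to 60.8 CPM in the other T-like classes. Smad3 had its highest mean in Treg-like barcodes, 73.8 and 59.1 CPM from 21 UMIs, but CD4 T-like barcodes held 63.8 CPM in reaction 2, and CD8 T-like barcodes had 26.3 ± 1.90 CPM, while Smad2 was 61.4 to 97.2 CPM in all classes.

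Tgfb2, Tgfb3, and Tgfbi were close to absent from TDLN lymphocytes. All T-like barcodes gave 3 UMIs of Tgfb2 and 10 of Tgfb3. B-like barcodes gave 30 UMIs of Tgfb3 (13.9 ± 3.41 CPM) and 10 of Tgfbi (4.90 ± 0.32 CPM). Of the latency and activation genes, Itgav, Lrrc32, and Itgb8 were highest in Treg-like barcodes here as well, at 304 ± 82.5, 74.1 ± 17.8, and 48.5 ± 18.4 CPM, and Nrros in B-like barcodes, at 170 ± 20.0 CPM. The target gene Itgae was 118 CPM in Treg-like barcodes (mean of 2 reactions). Levels in TDLNs and MC38 tumors are not compared, since the gene tables and program versions behind them differ.

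**Figure D2:**
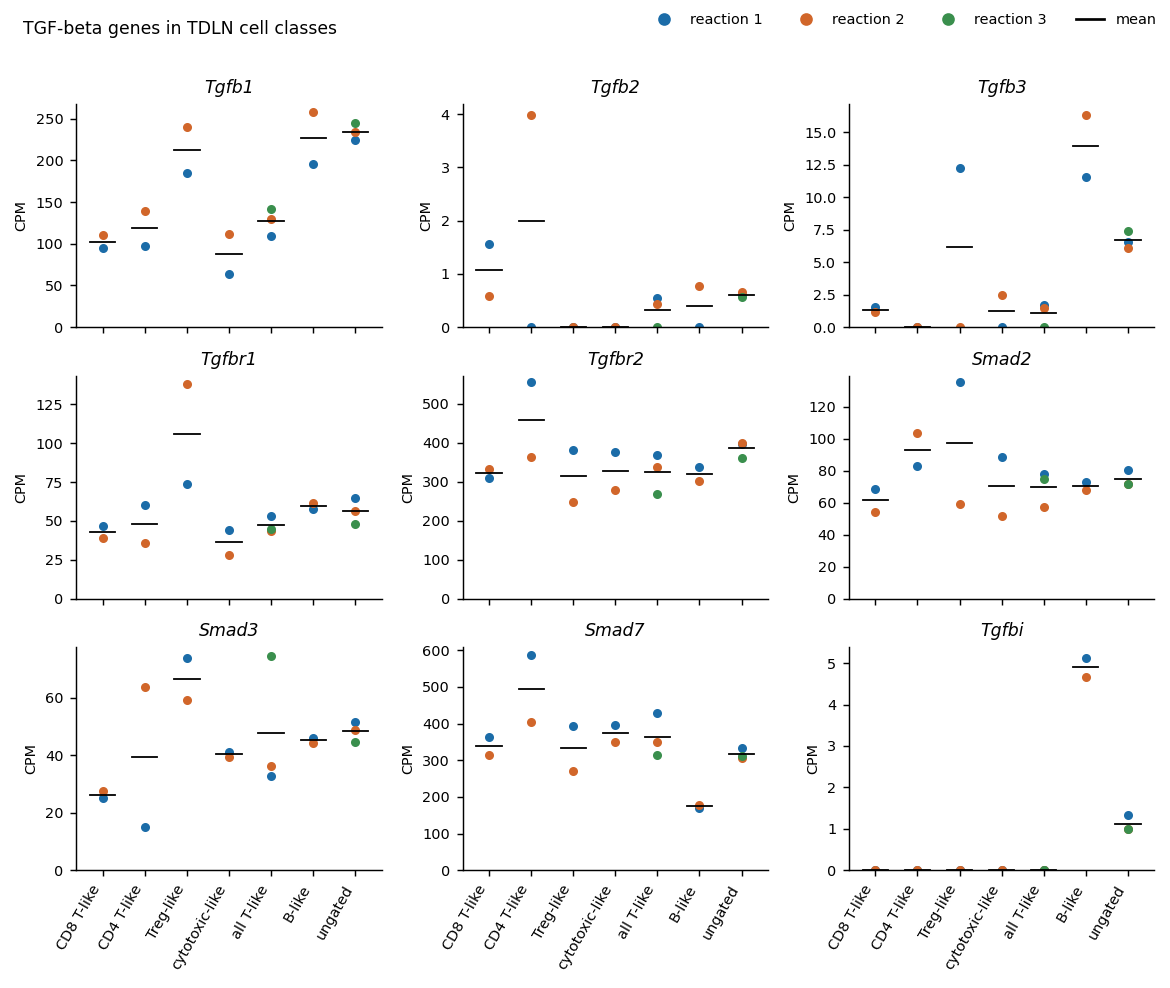
Level of each of the 9 genes in TDLN cell classes, in CPM, with a point for each reaction, a bar at the mean, and axes that start at 0 and differ by gene. Smad7 is 170 and 178 CPM in B-like barcodes and at least 272 CPM in every T-like class, and Tgfbi is 0 in all T-like classes.

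Treatments were tested in MC38 tumors, to ask whether CPI and the added JAK1 inhibition change these genes. Sums of UMIs per treatment and reaction were tested with edgeR's quasi-likelihood test over all genes, and adjusted p-values below 0.05 (Benjamini-Hochberg) are calls. The SE given is the absolute log2 fold change divided by the square root of that test's F statistic. At few UMIs it can be smaller than the counting error. Only macrophage-like and no-list Col3a1-low barcodes had at least 20 barcodes in each of the 8 sums. The comparisons share samples, since CPI is in both CPI against isotype and CPI + ABT-317 against CPI. The p-values therefore measure only the spread between reactions, which may be technical, and fewer cells of a subtype cannot be told apart from less RNA per cell.

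In macrophage-like barcodes, 3 members were lower in CPI than in isotype and none was higher. Tgfbi was 838 and 858 CPM in isotype and 489 and 415 CPM in CPI, a log2 fold change of -0.93 (SE 0.15, adjusted p = 0.00061). Tgfbr1 was 261 and 241 CPM in isotype and 124 and 58.7 CPM in CPI, a log2 fold change of -1.48 (SE 0.25, adjusted p = 0.00066). The groups did not overlap for either gene, and the Tgfbr1 difference was -2.09 without CPI reaction 1 and -1.10 without CPI reaction 2, both past the threshold. Tgfb3 was 39.4 and 34.3 CPM in isotype and 8.58 and 8.38 CPM in CPI, the latter from 2 UMIs in each reaction. Its log2 fold change was -2.13 (SE 0.60, adjusted p = 0.024), and the pooled CPI to isotype ratio was 0.232 with a 95% counting interval of 0.063 to 0.596.

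The other 5 tested members did not pass in macrophage-like barcodes, and Tgfb2 was filtered out for low counts. Tgfb1 was 103 and 113 CPM in isotype and 150 and 151 CPM in CPI, without overlap (log2 fold change 0.45, adjusted p = 0.14). Smad7 was 80.4 and 82.2 CPM in isotype and 42.9 and 67.0 CPM in CPI (log2 fold change -0.58, adjusted p = 0.17). Tgfbr2, Smad2, and Smad3 had log2 fold changes of -0.19, 0.66, and 0.22. Across all 8279 genes tested in these barcodes 14.9% were called, 8.60% as higher and 6.29% as lower, beside 0 and 3 of 8 members. The median log2 fold change was -0.39 over the members and -0.03 over all genes.

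The 205 macrophage-like barcodes of CPI differed from those of isotype in more than these genes. Their macrophage markers summed to 11431 and 11848 CPM against 14302 and 17549 CPM, and Mrc1, the gene for CD206, was 618 and 486 CPM against 100.3 and 92.4 CPM. Malat1, a nuclear RNA, was 7768 and 6917 CPM against 5174 and 4771 CPM, and median UMIs per barcode were 2022.5 and 2000.0 against 3223 and 3839. The neutrophil markers were 90.1 and 41.9 CPM against 25.6 and 19.6 CPM. The part of these differences in the member values was not tested.

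With ABT-317 added to CPI, the same 3 members were higher than in CPI alone. Tgfbi was 823 and 890 CPM in CPI + ABT-317 (log2 fold change 0.93, SE 0.16, adjusted p = 0.0011). Tgfbr1 was 206 and 165 CPM (log2 fold change 1.02, SE 0.26, adjusted p = 0.020), still below both isotype values. Tgfb3 was 49.2 and 32.7 CPM (log2 fold change 2.24, SE 0.62, adjusted p = 0.031), on a ratio of 4.637 with a counting interval of 1.752 to 17.371. In this comparison 10.0% of all genes were called, 4.51% as higher and 5.51% as lower, beside 3 and 0 of 8 members. Other measures differed from CPI as well, with Mrc1 at 79.6 and 102 CPM, Malat1 at 6172 and 5045 CPM, median UMIs at 3619 and 4607, and the Arg1 myeloid markers at 2246 and 2138 CPM against 733 and 1538 CPM in CPI. Their part in the member values was not tested. The CPI values stand in both comparisons, so a low CPI value lowers the first and raises the second.

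Some Tgfbr1 and Tgfb3 calls were lost on leaving out 1 sum. Without CPI reaction 2 the Tgfbr1 difference between CPI + ABT-317 and CPI was 0.64 (adjusted p = 0.25), without CPI reaction 1 it was 1.63 (adjusted p = 0.014), and without CPI + ABT-317 reaction 1 it was 0.95 (adjusted p = 0.059). Tgfb3 lost both calls without either CPI reaction (adjusted p = 0.16 to 0.18) at like folds, -2.12 and -2.18 for CPI and 2.23 and 2.29 for added ABT-317. Its second call was also lost without CPI + ABT-317 reaction 1 (2.03, adjusted p = 0.068) and by DESeq2 (2.24, adjusted p = 0.0504). With each barcode given to its leading hashtag, Tgfb3 changed by -0.94 (adjusted p = 0.11) and 1.08 (adjusted p = 0.11), and Tgfbr1 by 0.49 with added ABT-317 (adjusted p = 0.16). Both Tgfbi calls and the lower Tgfbr1 in CPI passed in every alternative run on macrophage-like sums.

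ABT-317 without CPI left no called member in the fit without the reaction as a block. With the block, no macrophage-like member was called but 3 no-list members were, as given further on, and over both classes the genes called went from 1 to 2487. With mixed barcodes kept in, Tgfbi of no-list barcodes was called (-0.91, adjusted p = 0.0074). In macrophage-like barcodes Tgfbi was 757 and 744 CPM in isotype + ABT-317 (log2 fold change -0.22, SE 0.13), Tgfbr1 289 and 236 CPM (0.02, SE 0.16), and Tgfb3 46.6 and 24.6 CPM (-0.09, SE 0.24). By edgeR 0 members of either class had an unadjusted p under 0.05, and DESeq2 called 0. Of all genes, 0.0121% were called in macrophage-like and 0.00% in no-list barcodes. In macrophage-like barcodes 5.06% of all genes were called for the interaction, 2.39% as positive and 2.67% as negative. The interaction is the ABT-317 difference with CPI minus that with isotype, and by edgeR it passed for Tgfbi (1.15, SE 0.21, adjusted p = 0.0041). For Tgfbr1 it was 1.00 (adjusted p = 0.078) and for Tgfb3 2.33 (adjusted p = 0.061), and with the reaction as a block these passed (adjusted p = 0.0039 and 0.010), where the genes called over both classes went from 445 to 2253.

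**Figure D3:**
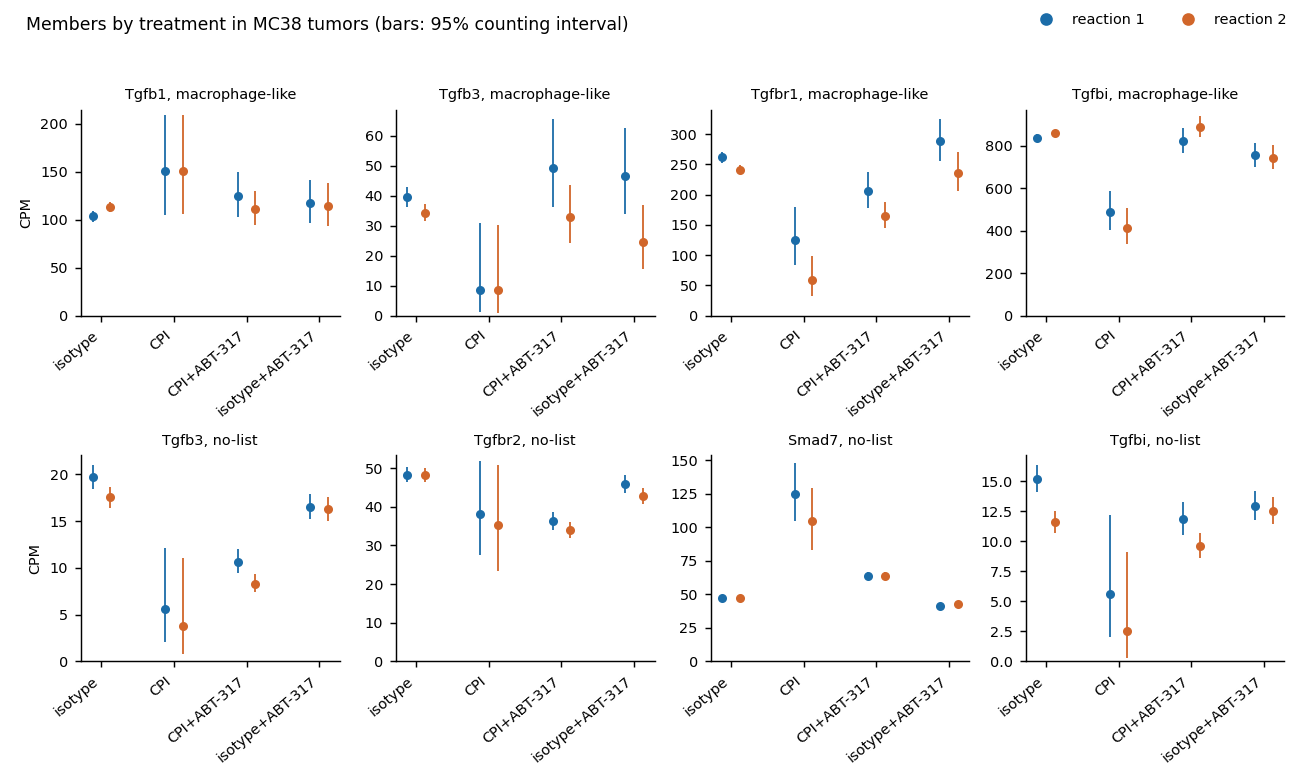
Levels in CPM of 4 genes by treatment in macrophage-like (top) and no-list Col3a1-low barcodes (bottom), with a point for each reaction and bars for its exact 95% Poisson interval of counting error; axes start at 0. In macrophage-like barcodes the CPI points of Tgfbi (489 and 415 CPM), Tgfbr1, and Tgfb3 lie below all others, and in no-list barcodes Smad7 is highest in CPI (125 and 104 CPM).

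Among pathway genes in macrophage-like barcodes, 3 of 23 tested were higher and 1 lower in CPI than in isotype, where 8.60% and 6.29% of all genes were. Thbs1, whose product activates latent TGF-beta, was 136 and 139 CPM in isotype, 549 and 913 CPM in CPI, and 178 and 122 CPM in CPI + ABT-317. It rose by a log2 fold change of 2.40 (adjusted p = 1.8e-06) and then differed by -2.31 from CPI (adjusted p = 1.2e-05). Over all treatments Thbs1 was highest in neutrophil-like barcodes, at 871 and 345 CPM from 108 UMIs, and the part of the higher neutrophil markers of the CPI sums in its value was not tested. Nrros was 96.2 and 104 CPM in isotype, 270 and 226 CPM in CPI, and 108 and 123 CPM in CPI + ABT-317 (log2 fold changes 1.28 and -1.08, adjusted p = 0.00013 and 0.0017). With the leading hashtag the latter was -0.64 (adjusted p = 0.054). Pmepa1 went the other way, with 440 and 447 CPM in isotype, 142 and 62.8 CPM in CPI, and 347 and 360 CPM in CPI + ABT-317 (log2 fold changes -2.15 and 1.81, adjusted p = 1.5e-05 and 0.00022). On leaving out 1 sum its folds ranged from -2.81 to -1.74 and from 1.40 to 2.47, the largest without CPI reaction 1. Id3 was 70.1 and 78.7 CPM in isotype and 154 and 163 CPM in CPI (log2 fold change 1.07, adjusted p = 0.014), a call lost without CPI reaction 1 (1.14, adjusted p = 0.086) or 2 (0.96, adjusted p = 0.17). In the comparison of CPI + ABT-317 with CPI, 1 pathway gene was higher and 2 were lower of 23, where 4.51% and 5.51% of all genes were.

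In no-list Col3a1-low barcodes, 1 member was higher and 2 were lower in CPI than in isotype, where 3.57% of 14320 genes were called, 1.75% as higher and 1.82% as lower. Smad7 was 47.0 and 47.3 CPM in isotype and 125 and 104 CPM in CPI, a log2 fold change of 1.13 (SE 0.13, adjusted p = 0.0023). Its groups did not overlap, and the call passed in every alternative that tested this class. Whether this differed from macrophage-like barcodes was not tested. Tgfb3 was 19.7 and 17.5 CPM in isotype and 5.60 and 3.77 CPM in CPI (6 and 3 UMIs). Its log2 fold change was -2.11 (SE 0.33, adjusted p = 0.011). The cut that bounds this class was chosen with Tgfb3 in view, so this call is not independent of the cut. The fibroblast markers that set the cut summed to 435 and 373 CPM in CPI and 734 and 744 CPM in isotype. The part of the cut in the Tgfb3 difference was not tested.

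Tgfbi in no-list Col3a1-low barcodes was 15.2 and 11.6 CPM in isotype and 5.60 and 2.52 CPM in CPI (6 and 2 UMIs). Its log2 fold change was -1.81 (SE 0.42, adjusted p = 0.049), and the pooled ratio was 0.323 with a counting interval of 0.139 to 0.639. Tgfbr2 was 48.3 and 48.1 CPM in isotype and 38.2 and 35.2 CPM in CPI (log2 fold change -0.55, adjusted p = 0.085, and 0.017 with the reaction as a block). Without CPI reaction 1 or 2 the Tgfb3 call was lost (adjusted p = 0.097 and 0.086), at folds of -2.47 and -1.94, as was that of Tgfbi (0.18 and 0.22, at -2.58 and -1.46). The Tgfbi call was lost also without isotype reaction 1 (adjusted p = 0.070), with library totals (-1.64, adjusted p = 0.082), and with the leading hashtag (-0.67, adjusted p = 0.27).

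With ABT-317 added to CPI, Smad7 was 63.7 and 64.0 CPM in no-list Col3a1-low barcodes (log2 fold change -0.69, SE 0.13, adjusted p = 0.048), between the CPI and isotype values. This call was lost on leaving out any 1 of the 8 sums (-0.54 to -0.76, adjusted p = 0.074 to 0.22) and with the leading hashtag (-0.35, adjusted p = 0.36), and 0.901% of all genes were called, 0.426% as higher and 0.475% as lower. Tgfb3 was 10.6 and 8.33 CPM (log2 fold change 1.13, adjusted p = 0.21). Tgfbi was 11.8 and 9.62 CPM (log2 fold change 1.48, adjusted p = 0.16, and 0.027 with the block). The interaction passed for no member here by edgeR, with 3 members under an unadjusted p of 0.05 and 0.182% of all genes called (0.0349% positive, 0.147% negative), while DESeq2 called Smad7 (adjusted p = 0.041). With the block it passed for Smad7 (-0.58, adjusted p = 0.00039) and Tgfbi (1.51, adjusted p = 0.030), where the genes called over both classes went from 445 to 2253.

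ABT-317 without CPI gave no-list Col3a1-low values of 41.6 and 42.4 CPM for Smad7, 16.5 and 16.3 CPM for Tgfb3, and 13.0 and 12.6 CPM for Tgfbi. With the reaction as a block 3 members were called lower than in isotype by small amounts, Smad3 (-0.27, adjusted p = 0.020), Tgfbr1 (-0.22, adjusted p = 0.049), and Smad7 (-0.12, adjusted p = 0.032). Calls over all genes rose greatly in this setting, as given above for both classes together. Their share in this class alone is not given, so these member calls cannot be set against it. The CPI sums of this class held 56 and 27 barcodes. Their fibroblast markers, the list that divides the no-list classes, summed to 435 and 373 CPM against 734 and 744 CPM in isotype. Malat1 was 1865 and 1315 CPM against 1234 and 843 CPM, and their cytotoxic markers to 28.9 and 255 CPM against 57.6 and 54.2 CPM. The part of these differences in the member values was not tested.

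**Figure D4:**
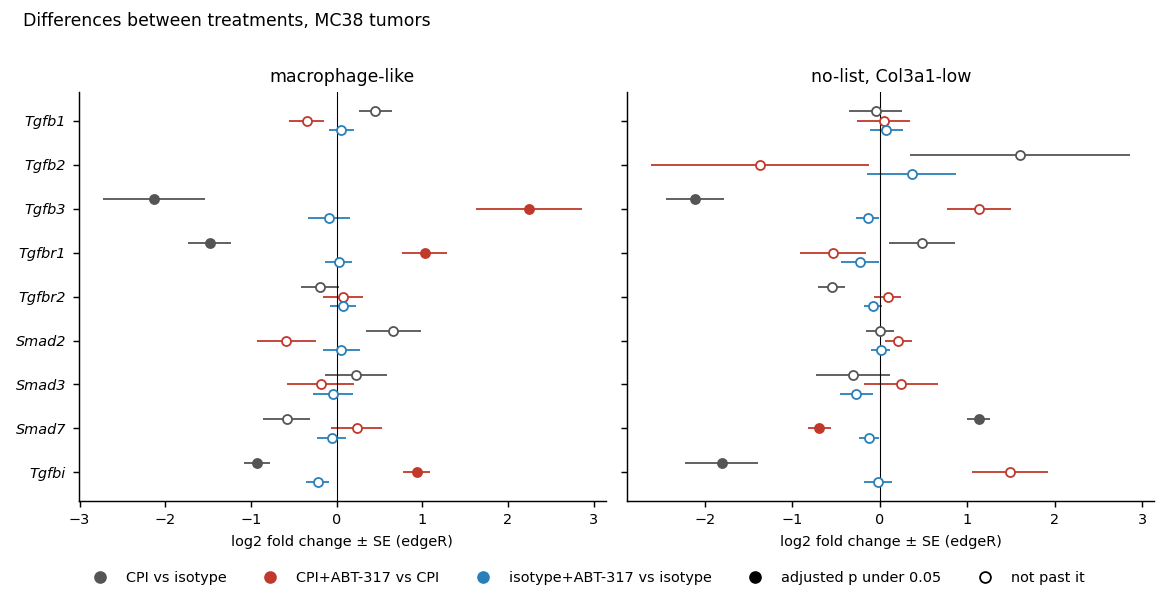
Log2 fold change of each member (x axis) in macrophage-like (left) and no-list Col3a1-low barcodes (right), with an SE derived from edgeR's F statistic. The comparisons are CPI against isotype, CPI + ABT-317 against CPI, and isotype + ABT-317 against isotype. Filled points have an adjusted p under 0.05. The Tgfbi, Tgfbr1, and Tgfb3 points of macrophage-like barcodes lie at -0.93, -1.48, and -2.13 for CPI and at 0.93, 1.02, and 2.24 for added ABT-317.

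Of 30 pathway genes tested in no-list Col3a1-low barcodes, 2 were higher in CPI than in isotype, where 1.75% of all genes were. Id1, a target of the BMP branch, was 14.7 and 15.6 CPM in isotype, 73.7 and 108 CPM in CPI, and 23.6 and 24.7 CPM in CPI + ABT-317 (log2 fold changes 2.40 and -1.73, adjusted p = 0.00049 and 0.0071). The lower Id1 under CPI + ABT-317 lost its call without CPI reaction 2 (adjusted p = 0.072). By DESeq2 Id1 was also lower in isotype + ABT-317 than in isotype (adjusted p = 0.0075), while edgeR called 0 of 30 pathway genes there, with 4 under an unadjusted p of 0.05.

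**Figure D5:**
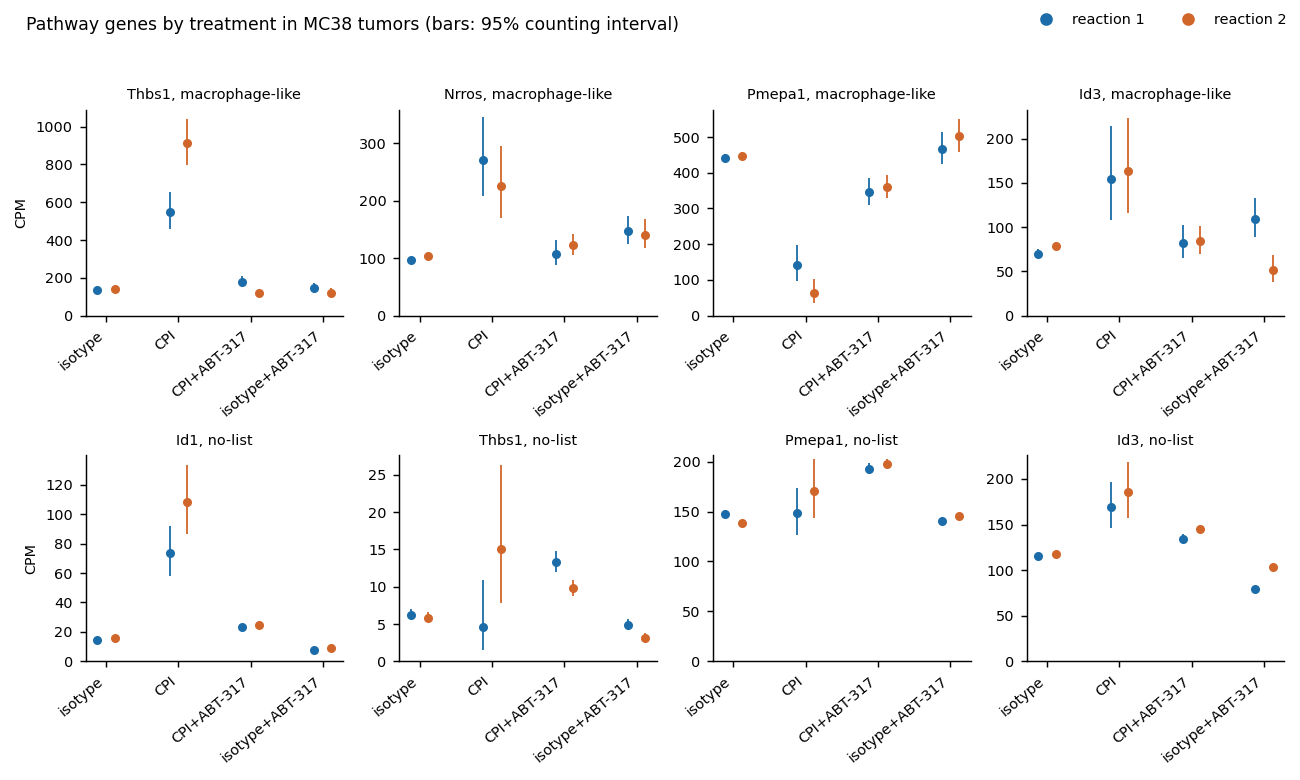
Levels in CPM of pathway genes by treatment in macrophage-like (top) and no-list Col3a1-low barcodes (bottom), a point for each reaction with its exact 95% Poisson interval, on axes that start at 0. In macrophage-like barcodes Thbs1 is 549 and 913 CPM in CPI against 122 to 178 CPM in the other treatments, and in no-list barcodes Id1 is 73.7 and 108 CPM in CPI against at most 24.7 CPM.

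Other classes lacked barcodes in some treatments, so their values are given side by side with no test. No-list Col3a1-high barcodes numbered 9 and 4 in CPI, which gives no level. In the other treatments their Tgfb3 was 105 and 99.5 CPM in isotype, 98.5 and 96.0 CPM in isotype + ABT-317, and 63.2 and 49.3 CPM in CPI + ABT-317, the only treatment apart. Smad7 there was 80.7 and 74.8 CPM in isotype, 78.5 and 73.6 CPM in isotype + ABT-317, and 108 and 95.6 CPM in CPI + ABT-317. Both genes thus stood in the same order as in no-list Col3a1-low barcodes of these 3 treatments. The no-list classes are not independent of each other, since 1 cut, chosen with Tgfb3 in view, divides them. In reactions 1 and 2, 1199 and 932 barcodes lay within 20% of that cut. In T cell-like barcodes, of which CPI held nearly all, Smad7 was 342 and 431 CPM and Smad3 85.6 and 70.4 CPM in CPI.

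Fibroblast-like barcodes outside CPI were few and differed from those of CPI in H19 and in the fibroblast markers. H19, an imprinted RNA that led no-list Col3a1-high barcodes, was 168 and 177 CPM in fibroblast-like barcodes of CPI and 1061 to 1595 CPM in the other sums with at least 20 barcodes, and the fibroblast markers were 81005 and 88633 CPM against 19284 to 36753 CPM. Tgfbr2 was 408 and 450 CPM in CPI and 291 and 211 CPM in isotype. Tgfb3 was 25.9 and 20.9 CPM in CPI and 172 and 42.5 CPM in isotype, and Tgfbi was 125 and 96.1 CPM against 49.6 and 33.6 CPM. Whether these reflect treatment or the kind of cell cannot be told apart.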

How the data were processed

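scRNA-Seq was measured in 3 TDLN and 2 MC38 reactions. The authors deposited UMI counts per gene and barcode, without normalization, written by Cell Ranger 7.1.0 (TDLN) and 8.0.1 (MC38) per the file headers. The submitters' processing notes name Cell Ranger 3.1.0 and GRCm38 (mm10). Barcodes with at least 200 genes and under 10% mitochondrial counts were kept, without the study's upper limit of 2500 genes. Hashtags were called by a 2-component mixture per hashtag, and barcodes with exactly 1 were used, which with the removal of barcodes showing markers of 2 lineages served against doublets. Classes were gated on marker UMIs per 10000, at thresholds set after seeing the data, an exploratory clustering included, in place of the planned clusters; 859 to 1506 MC38 macrophage-like candidates per reaction lay within 20% of the gate. Members, lists, and the part itself were chosen with earlier results of these data known. Named genes were the 9 members, pathway genes called in a comparison (at most 6 by adjusted p), the highest pathway genes by class, and the 3 most alike genes per member with a mean of at least 20 CPM.

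UMI counts were summed per class, treatment, and reaction and tested with edgeR 4.0.16 (TMM, filterByExpr, quasi-likelihood, R 4.3.3) after a check on simulated data. DESeq2 1.42.0 was an alternative. Intervals cover counting error only (exact, 95%), and 0 UMIs allow up to 3. Reaction numbers mark shared droplet reactions and so pair the sums: deviations of same-reaction sums correlated at 0.076 to 0.355 in macrophage-like and 0.123 to 0.589 in no-list barcodes. Alternatives were the reaction as a block, no low-count filter, library totals, the 2500-gene limit, the leading hashtag, mixed barcodes kept, pooled no-list classes and CPI barcodes alone (both added after seeing the data), means over cells, and leaving out each sum or reaction. Other tools were Python 3.11.15, numpy 2.4.6, pandas 2.3.3, and scipy 1.17.1. 1 called pathway gene is not reported here.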

Additional observations from a re-analysis of the deposited data

Results flagged for a closer look

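In macrophage-like barcodes of MC38 tumors, the interaction was called for 1 of 8 members and 3 of 23 pathway genes tested. It sets the ABT-317 to vehicle difference with CPI against that with isotype, by edgeR's quasi-likelihood test with Benjamini-Hochberg adjustment. Of all 8279 genes, 5.06% were called in this test. On the log2 scale, the ABT-317 difference after CPI minus that after isotype was 1.15 for Tgfbi (adjusted p = 0.0041), 1.72 for Pmepa1 (0.0035), -2.22 for Thbs1 (0.00073), and -1.56 for Nrros (0.0015). Tgfbi and Pmepa1 were higher and Thbs1 and Nrros lower in CPI + ABT-317 than in CPI in both reactions. All 4 values rest on CPI sums of 102 and 103 barcodes. These sums also stood apart from the other treatments in Mrc1 (618 and 486 CPM) and in median UMIs per barcode (2022.5 and 2000.0). A treatment and the call of its hashtag cannot be told apart, and the part of either in these values was not tested. With the leading hashtag Pmepa1 was 0.79 (adjusted p = 0.091), and on leaving out 1 sum it ranged from 1.31 to 2.39. No group held 4 samples, so none was tested for outlying samples.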

How the results depend on the processing

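Of 25 calls of members and pathway genes, none changed sign under the alternatives run for its class (16 in all, of which pooling the no-list classes left macrophage-like sums as they were), and 14 passed in each of these, among them 5 of the 11 member calls. Of 57 member results that were not calls, 10 passed in at least 1 alternative and 29 changed sign in at least 1. Over both classes, edgeR called 6 member results for CPI against isotype, 4 for CPI + ABT-317 against CPI, 0 for isotype + ABT-317 against isotype, and 1 for the interaction, and 1744, 958, 1, and 445 results over all genes. With the reaction as a block all-gene counts were 3850, 2794, 2487, and 2253, with 3 members called for isotype + ABT-317 and 5 for the interaction; this changed no member call other than those given in the report. Without the low-count filter they were 2650, 1540, 87, and 888, and the interaction had 3 members. DESeq2 gave 23 genes for isotype + ABT-317 and 2 members for the interaction (660 genes), and library totals gave 4 genes for isotype + ABT-317. The 2500-gene limit, which left macrophage-like barcodes alone to be tested, gave 3 members for CPI against isotype, 3 genes for isotype + ABT-317, and 2 members for the interaction (364 genes). The leading hashtag gave 2676, 1443, 4, and 466 genes. Mixed barcodes kept in gave 1625 genes for CPI + ABT-317 against CPI, 544 genes and 1 member (Tgfbi) for isotype + ABT-317, and 3 members for the interaction (500 genes). The number of genes tested can change with the filter and the classes, and it is not given per alternative. These counts and those below are therefore not shares, and members called in an alternative cannot be set against all genes. Under the 2500-gene limit the all-gene count for CPI against isotype is not given. The causes were not tested.

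On leaving out each of the 8 sums in turn, members called ranged from 3 to 6, 1 to 3, 0 to 0, and 1 to 2 in the order above, and all genes from 548 to 1695, 286 to 1028, 0 to 11, and 137 to 490, with the lowest all-gene counts of all but the third comparison on leaving out CPI reaction 2. Of 9 members, 5 to 9 kept their highest MC38 class without 1 reaction and 6 to 9 their highest TDLN class. Without MC38 reaction 2, Tgfb2 moved to fibroblast-like, Tgfb3 to mature DC-like, and Smad2 and Smad3 to neutrophil-like barcodes. CPI sums of 27 to 103 barcodes limit what could be detected.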
